A study of Mus musculus with 14 samples.

Results

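The control layer II/III of the mouse cerebral cortex at postnatal day 5 was described from the control libraries of an Lhx2 deletion study. All libraries with a control label were taken, which gave 7 of the 14 libraries. They form 2 groups from separate experiments: 4 progenitor controls and 3 postmitotic controls. Both control groups came from Lhx2lox/lox mice, which carry conditional alleles of Lhx2 and no Cre, and an EGFP plasmid was brought into the cortex by in utero electroporation at E15.5. The libraries labelled mutant received a Cre-EGFP plasmid in Lhx2lox/lox mice (progenitor, n = 4) or carried NexCre/+; Lhx2lox/lox with the EGFP plasmid (postmitotic, n = 3). NexCre expresses Cre from the Neurod6 gene, in excitatory neurons soon after their last division. Layer II/III was cut from live coronal slices, dissociated with trypsin, and its polyadenylated RNA was sequenced as read pairs of 150 bases. The sample titles speak of labelled neurons, whereas the protocols describe microdissection and name no sorting step, so the libraries can hold unlabelled neurons and other cells of the dissected layer. The labels do not say whether the replicates were separate animals or pools, and p-values then measure the spread between these samples, which may be technical.

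Layer II/III holds the late-born excitatory neurons that send axons within the cortex and across the corpus callosum. In the first postnatal week these neurons have finished migrating and are growing axons and dendrites, a phase known for a high output of tubulins and microtubule-binding proteins. Synapses are then still few, and many receptors are known to pass from subunits typical of young neurons to adult ones. Astrocytes are dividing at this age, and myelination of the cortex has barely begun.

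Control totals were 24947089 to 29497595 counts in the progenitor and 21605777 to 25150658 counts in the postmitotic experiment. The count tables list 25229 and 55353 gene symbols, of which 24690 are in both, and these shared symbols took 99.17% to 99.3% and 94.29% to 94.49% of the control counts. Counts scaled to library size (CPM, where 1 CPM stands for 1 count in 1000000) were ranked within each table over the shared symbols, with rank 1 the highest group mean. CPM were never tested between the tables, because annotation, experiment and table cannot be told apart there. Values of the 2 tables are given side by side, progenitor first. At least 1 CPM in every control was reached by 13437 and 13220 shared symbols, 12890 of them in both tables. Spearman's rho of the ranks was 0.944 across 13767 genes, which share libraries and are not independent replicates.

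Some control libraries stood apart, and results that rest on them are given by library. Progenitor control 1 had the lowest counts of fibroblast genes, described with the other cell types. Postmitotic control 3 alone had Ttr, the transthyretin of the choroid plexus, at 79.66 CPM, against 0.1981 and 0.4336 CPM in controls 1 and 2. Xist, the RNA of the inactive X chromosome, was at 794.6 to 1245 CPM in the 4 progenitor controls, where 4 Y-linked genes together gave at most 0.03813 CPM. Postmitotic controls 1 and 2 held 165.5 and 133.4 CPM of those Y-linked genes and control 3 held 0.04621 CPM, with Xist at 0.317, 0.3154 and 1040 CPM. In progenitor libraries 1 to 4 labelled mutant, the Y-linked sum was 0, 154.9, 99.32 and 170.3 CPM, with Xist at 1657, 8.014, 554 and 0.1296 CPM. Library 3 of these held both kinds of marker, and whether it pooled animals was not tested. Sex markers were mixed in every group but the progenitor controls. In the progenitor experiment only libraries labelled mutant held more than 0.03813 CPM of the Y-linked genes, so label and sex markers partly coincided. The part of sex markers in differences between control and mutant labels was not tested.

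Lhx2 is the LIM-homeodomain transcription factor that the study targets. Its counts were 130.5, 120.4, 139 and 119.9 CPM in the progenitor controls (rank 1933) and 146.1, 150.1 and 143.2 CPM in the postmitotic controls (rank 1516). The libraries labelled mutant had 129.4 CPM ± 11.4 (SD, n = 4) and 178.8 CPM ± 7.39 (SD, n = 3), so Lhx2 was not lower there. By edgeR's quasi-likelihood test, with p-values adjusted after Benjamini and Hochberg, its log2 difference was 0.02 (SE 0.07, adjusted p = 0.847) in the progenitor and 0.29 (SE 0.06, adjusted p = 0.0276) in the postmitotic experiment. The labels do not say which exons the conditional allele removes, and counts over the whole gene need not show the deletion. In the postmitotic experiment the call was lost with the replicate number as a block and without each of 5 of the 6 libraries.

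The most counted transcript in both control groups was Tuba1a, the alpha-tubulin of young neurons. Promoters of 3 tubulin genes and of Map1b, all among the 20 genes of lowest mean rank, are shown as examples of the cytoskeletal genes that held most of the first 10 places. Each runs from 250 bases before to 50 bases after the RefSeq start site (GRCm38.p6), 5′ to 3′ on the strand of the gene. Capitals mark 3 promoter motifs: the TATA box (searched as TATAAA), the CAAT box (searched as CCAAT) and the GC box (searched as GGGCGG). Both strands were searched, and a match on the other strand appears as its reverse complement. Tuba1a lies at chr15:98953452-98953751 (minus strand), Tubb2a at chr13:34077959-34078258 (minus strand), Tubb3 at chr8:123411303-123411602 (plus strand) and Map1b at chr13:99516553-99516852 (minus strand).
Tuba1a: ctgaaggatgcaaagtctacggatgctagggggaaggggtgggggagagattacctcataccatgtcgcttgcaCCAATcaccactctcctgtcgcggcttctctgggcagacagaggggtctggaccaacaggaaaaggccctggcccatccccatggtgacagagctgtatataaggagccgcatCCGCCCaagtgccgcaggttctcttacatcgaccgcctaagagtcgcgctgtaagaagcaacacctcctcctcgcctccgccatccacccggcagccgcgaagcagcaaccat
Tubb2a: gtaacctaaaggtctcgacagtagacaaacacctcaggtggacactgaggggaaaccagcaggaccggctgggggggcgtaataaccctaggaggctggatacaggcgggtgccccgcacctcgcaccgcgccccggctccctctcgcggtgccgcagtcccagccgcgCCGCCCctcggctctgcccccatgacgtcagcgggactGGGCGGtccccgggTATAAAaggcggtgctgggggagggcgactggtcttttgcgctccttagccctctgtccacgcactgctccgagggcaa
Tubb3: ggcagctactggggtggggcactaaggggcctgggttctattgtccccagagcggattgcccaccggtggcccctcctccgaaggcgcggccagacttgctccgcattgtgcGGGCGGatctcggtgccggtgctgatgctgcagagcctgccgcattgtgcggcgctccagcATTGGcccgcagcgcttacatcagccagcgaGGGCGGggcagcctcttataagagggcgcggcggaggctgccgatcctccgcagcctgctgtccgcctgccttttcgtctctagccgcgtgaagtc
Map1b: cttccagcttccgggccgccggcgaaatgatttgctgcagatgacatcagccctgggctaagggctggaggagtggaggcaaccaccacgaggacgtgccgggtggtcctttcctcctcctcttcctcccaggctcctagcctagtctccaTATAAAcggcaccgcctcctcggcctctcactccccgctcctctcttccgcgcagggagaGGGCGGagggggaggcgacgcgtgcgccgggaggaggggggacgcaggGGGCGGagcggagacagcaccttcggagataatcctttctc
Tubb2a carried TATAAA 29 bases before its start site, and Map1b carried it 99 bases before. Tuba1a and Tubb3 had CCAAT on one or the other strand, 176 and 77 bases before the start. GGGCGG was found in each of these 4 windows. Over all 27025 promoters of the RefSeq table, 14.2% held TATAAA, 37.9% CCAAT and 35.9% GGGCGG. Among 10233 promoters of genes with at least 1 CPM in every control the shares were 6.5%, 38.7% and 66.2%. Of the 100 genes with the lowest mean rank, 68 had a promoter in the table, and 16.2%, 38.2% and 72.1% of these held the 3 motifs. A match describes letters in the window and is not a binding site.

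Tuba1a counts were 7195, 5474, 5533 and 6143 CPM in the progenitor controls and 7014, 7011 and 7345 CPM in the postmitotic controls. Every one of the 7 libraries placed it first. Longer genes collect more counts, so ratios of genes and shares within families were taken as CPM per kilobase of exon. On that scale Tuba1a was again first at 3376 ± 443 (SD, n = 4) and 3951 ± 107 (SD, n = 3). Ranks, and the positions and sums of the cell type lists, rest on CPM without a correction for exon length. Lists are thus compared by counts, and their sums also depend on the number of members. Tuba1a, Tuba1b and Tuba1c are near-identical copies, and how reads were split among them depends on counting settings that the sources used here do not give.

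Beta-tubulins followed. Tubb2b had 3454, 3157, 3186 and 3541 CPM (rank 5) and 5377, 5747 and 5788 CPM (rank 2). Tubb2a ranked 13 and 10, Tubb5 ranked 7 and 6, and Tubb3, the beta-tubulin of neurons, ranked 10 and 12. Per kilobase these 4 genes all stood among the first 10 in both tables, and Tubb2b, Tubb2a and Tubb3 among the first 5. The tubulins among the 100 most counted genes took 1.71% ± 0.139 (SD, n = 4) of the shared counts with 5 genes, and 2.58% ± 0.0753 (SD, n = 3) with 7 genes.

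Proteins that bind and remodel microtubules and the growth cone formed the largest class. Map1b, which steadies axonal microtubules, had 3301, 4286, 3412 and 4009 CPM (rank 2) and 4075, 3832 and 3693 CPM (rank 3). Dpysl3, a collapsin response mediator of the growth cone, ranked 4 and 5. Mapt, which encodes tau, ranked 8 and 7, Map2 of the dendrite ranked 16 and 20, and Stmn2, a tubulin-binding protein of growing axons, ranked 20 and 18. Basp1, a growth cone membrane protein, ranked 12 and 17, and Gap43, its partner in growth cones, ranked 14 in both tables when counts were taken per kilobase. As many as 15 genes of this class in each group were among the 100 most counted, with 2.67% ± 0.0393 (SD, n = 4) and 2.97% ± 0.0231 (SD, n = 3) of the shared counts.

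Doublecortin (Dcx), a microtubule-binding protein of migrating and young neurons, was also among them, with 871.7, 1067, 959.3 and 973.1 CPM (rank 73) and 1322, 1174 and 1157 CPM (rank 42). The remaining leading genes served translation, signalling and transport. Eef1a1, a translation elongation factor, ranked 3 and 4, and Kif1a, a kinesin that carries synaptic vesicle precursors, ranked 11 and 25. Meg3, a long noncoding RNA, ranked 6 and 9. Mef2c, a transcription factor of cortical neurons, ranked 22 and 15.

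Counts were spread over many genes. The 100 most counted genes of each control group took 14.7% ± 0.213 (SD, n = 4) and 15.7% ± 0.217 (SD, n = 3) of the shared counts, and 82 of these 100 genes were the same in both tables. It took 1153 to 1210 and 1144 to 1180 genes to reach 50% of the counts. Ribosomal protein genes, short and with many processed copies, placed 1 of 107 members among the 100 most counted in the progenitor table (Rpsa) and 0 in the postmitotic table, and all members together took 2.09% ± 0.224 (SD, n = 4) and 2.04% ± 0.0955 (SD, n = 3). Per kilobase, Rplp1 of the ribosomal stalk ranked 6 in both tables, and 9 genes stood in the first 20 both by CPM and per kilobase.

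**Figure D1:**
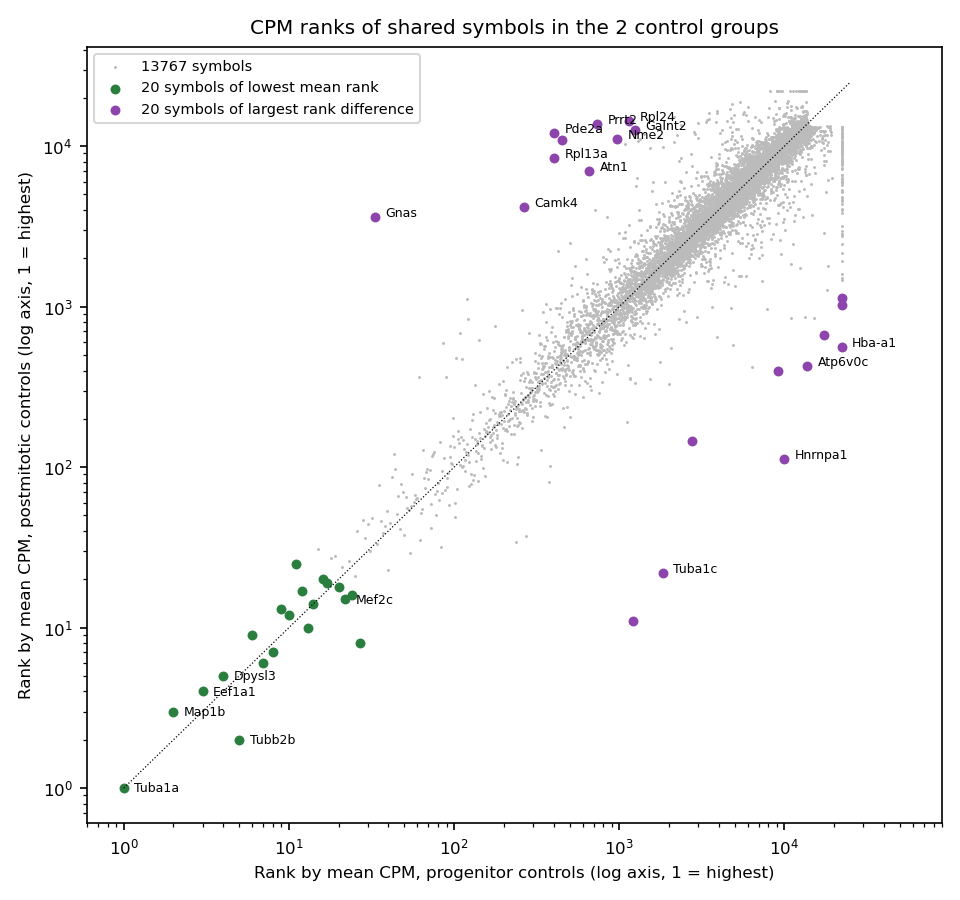
Rank by mean CPM in the progenitor controls (horizontal, log axis) against rank in the postmitotic controls (vertical, log axis), 1 point per shared symbol of the rank correlation, with a dotted line at equal rank. The 20 symbols of lowest mean rank (green) lie at the lower left, led by Tuba1a at rank 1 in both, and the 20 symbols of largest rank difference (purple) lie far from the line.

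The label of the tissue was compared with defining genes of cortical neurons. General neuronal genes were high in both tables: the 12 members of that list had a median position in the top 0.978% and 1.01% of the shared symbols. Genes of excitatory cortical neurons had a median position in the top 5.66% and 5.01%. Nrgn, a calmodulin-binding protein of dendritic spines, led them with 1636, 1197, 1262 and 1297 CPM (rank 35) and 729.1, 898.3 and 918.5 CPM (rank 77). Camk2a, the alpha subunit of the synaptic CaM kinase, ranked 142 and 622. The vesicular glutamate transporter Slc17a7, known to take over from Slc17a6 in the cortex, exceeded it per kilobase by 6.85 ± 1.15 times (SD, n = 4) and 3.04 ± 0.415 times (SD, n = 3), in every control library.

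All 16 upper-layer genes had at least 1 CPM in every control, with a median position in the top 6.07% and 5.25%. Cux2, a homeodomain factor of layers II to IV, had 248.1, 259.4, 280.1 and 207.9 CPM (rank 783) and 354.3, 365.1 and 366.4 CPM (rank 341). Plxnd1, a semaphorin receptor, was the upper-layer gene with the most counts in the progenitor table (rank 361) and ranked 806 in the postmitotic table. Pou3f2 and Pou3f3, transcription factors of late-born neurons, ranked 2030 and 974 in the progenitor and 1286 and 379 in the postmitotic table. Rorb, a nuclear receptor of layer IV that is also known in upper layers, ranked 1460 and 1747. At the low end Calb1, a calcium-binding protein, had 21.97 CPM ± 3.16 (SD, n = 4) and 12.79 CPM ± 0.313 (SD, n = 3).

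Genes of deeper layers were present as well and stood lower, with all 14 members at 1 CPM or more and a median position in the top 17.9% and 18.5%. Tbr1, a factor of layer VI, had 92.67, 124, 88.87 and 117.7 CPM (rank 2367) and 83.58, 88.27 and 85.58 CPM (rank 2796). Bcl11b and Fezf2, factors of subcerebral projection neurons, ranked 3463 and 4629 in the progenitor and 2409 and 4634 in the postmitotic table. Foxp2 of layer VI had 18.84, 28.18, 15.02 and 29.22 CPM in the progenitor controls. Progenitor controls 2 and 4 were the higher ones for Tbr1, Foxp2, Bcl11b and Tle4, and the summed deep-layer counts were 786.6, 911.1, 733.6 and 951.5 CPM in progenitor controls 1 to 4. The upper-layer sum in the same libraries was 2746, 2705, 2715 and 2389 CPM, lowest in control 4. The part of the cut or of cell number in these sums was not tested, and in bulk tissue fewer cells of a type and less RNA per cell cannot be told apart.

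Cux2 exceeded Fezf2 per kilobase by 1.48 ± 0.373 times (SD, n = 4) and 2.27 ± 0.304 times (SD, n = 3), and the ratio came as close to equality as 1.02 in progenitor control 4. Pcp4, a calmodulin-binding peptide of deep-layer neurons, ranked 4473 in the progenitor and 10699 in the postmitotic table. Subplate genes had a median position in the top 43.0% and 49.2%, led by Nr4a2 at ranks 5965 and 7775.

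Reelin (Reln), the secreted protein of Cajal-Retzius cells and of some interneurons, ranked 726 and 598, and Trp73, a more selective gene of Cajal-Retzius cells, had 3.215 to 5.547 and 5.429 to 5.637 CPM. The 11 genes of striatum, thalamus and hippocampus had a median position in the top 48.2% and 50.1%. The exception was Zbtb20, a factor of hippocampal neurons and of astrocytes, at 101.5, 114.7 and 115.6 CPM in the postmitotic and 10.1 to 15.77 CPM in the progenitor controls. Gbx2, a thalamic factor, was at 0 in the postmitotic controls and at most 0.03813 CPM in the progenitor controls.

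Sox4 and Sox11, factors of neuronal maturation, ranked 600 and 1168 in the progenitor and 274 and 354 in the postmitotic table. Of the exon bases of Sox4, 54.6% are shared with an annotated gene on the other strand. The strand setting is not given, which makes its count uncertain. Genes of intermediate progenitors were near the floor: Eomes reached at most 0.5844 and 0.07884 CPM, and Neurog2 at most 0.3813 and 0.6702 CPM. Genes of dividing cells were low but present, with Mki67 at 25.84 to 36.12 and 21.44 to 27.52 CPM and Top2a at 21.98 to 30.45 and 19.68 to 24.95 CPM. Which cells divided cannot be read from bulk tissue.

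Interneuron genes were lower than those of excitatory neurons, with a median position in the top 23.5% and 26.7%. Gad1, an enzyme of GABA synthesis, had 64.75, 79.72, 64.49 and 83.95 CPM (rank 3444) and 56.95, 56.81 and 60.39 CPM (rank 4017). Lhx6, a factor of interneurons from the medial ganglionic eminence, ranked 5522 and 4648, and Adarb2, a gene of the caudal eminence lineage, ranked 7173 and 6476. Sst, the neuropeptide somatostatin, had 44, 56.85, 39.29 and 58.68 CPM and 26.12, 36.35 and 33.08 CPM. Vip had 12.85 to 19.98 and 9.154 to 11.37 CPM. Pvalb, which is known to appear later in development, had at most 0.4151 and 0.09242 CPM. The interneuron sum followed the deep-layer sum in being highest in progenitor controls 2 and 4, at 893.8 and 893.9 CPM, against 727 and 745.7 CPM in controls 1 and 3.

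**Figure D2:**
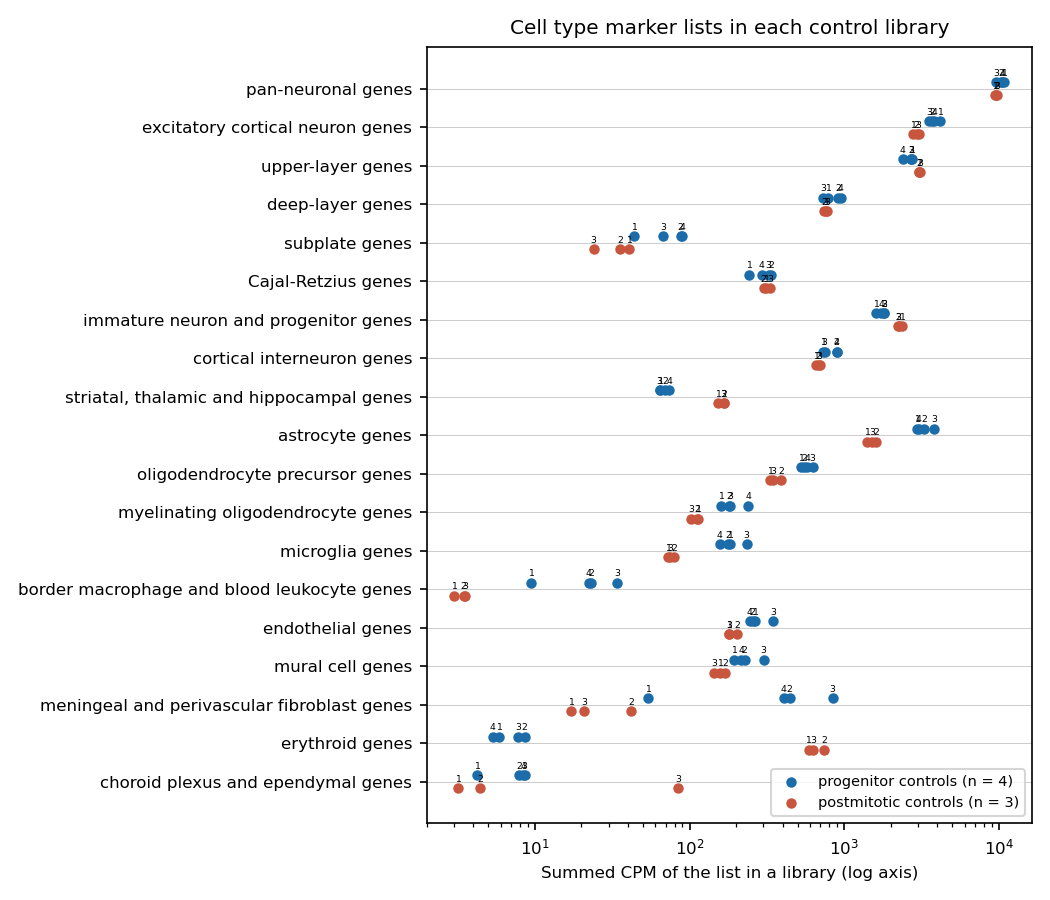
Summed CPM of each cell type list (horizontal, log axis) in each control library, progenitor controls in blue and postmitotic controls in red, with the replicate number above each point. Pan-neuronal, excitatory and upper-layer sums differ at most 1.18-fold within a group, the subplate sum by 2.06-fold and 1.69-fold, while the fibroblast list spreads from 54.17 to 842 CPM over the progenitor controls and the choroid plexus list reaches 84.7 CPM in postmitotic control 3.

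Among the lists of glia, vessels, fibroblasts and blood, that of astrocytes had the largest summed CPM in both tables, at means of 3278 and 1508. The 12 astrocyte genes had a median position in the top 5.28% of the progenitor table and the top 14.8% of the postmitotic table, and all had at least 1 CPM in every control. By median position the erythroid list, described below, stood higher in the postmitotic table, at the top 6.45%. Slc1a2, the main astrocytic glutamate transporter, had 675.2, 855.5, 830.9 and 688.1 CPM (rank 112) and 295.2, 308.4 and 310.3 CPM (rank 472). Glul, glutamine synthetase, ranked 223 and 449. Gfap, an intermediate filament of astrocytes, had 83.51, 169.8, 207.2 and 247.2 CPM (rank 1283) and 30.04, 30.39 and 32.39 CPM (rank 6330). Gfap was lowest in progenitor control 1 and highest in control 4, while the postmitotic controls lay close together. Differences of tissue, experiment and table cannot be told apart between these positions.

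In the oligodendrocyte lineage, precursor genes stood above those of myelinating cells by median position. The 8 precursor genes had a median position in the top 19.6% and 23.2%, with Olig1 at ranks 1434 and 2607 and the growth factor receptor Pdgfra at ranks 1973 and 2462. Genes of myelinating cells stood at the top 42.8% and 44.2%, and 6 of 8 had at least 1 CPM in every control of each table. Mbp (ranks 3364 and 4444) stood above the precursor gene Olig2 (ranks 4597 and 5357). Mbp, myelin basic protein, had 62.31 to 98.69 and 50.14 to 52.47 CPM, Mobp at most 0.7906 and 0.1386 CPM, and Opalin at most 0.07625 CPM and 0. Progenitor control 4 was highest for Mbp and Myrf.

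Microglial genes summed to 182.4, 178.1, 234.1 and 157.2 CPM and to 72.24, 79.2 and 75.09 CPM. Vessel genes were led by Cldn5, the tight-junction claudin of endothelium, at ranks 3955 and 4949, and by Rgs5 of pericytes at ranks 2732 and 3382. Border macrophage and leukocyte genes summed to 9.483 to 33.96 and 3.012 to 3.558 CPM. The neutrophil gene Ly6g had 0 counts in all 7 controls, which allows up to 0.1386 CPM in the shallowest of them (3 counts; this limit covers counting error only).

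Fibroblast genes separated the progenitor controls. The 9 genes of meningeal and perivascular fibroblasts summed to 54.17, 443.7, 842 and 405.4 CPM, a 15.5-fold range, and to 17.04, 41.75 and 20.75 CPM in the postmitotic controls. Ptgds, the prostaglandin D synthase of the meninges, had 7.285, 147.9, 246.7 and 151.8 CPM. Igf2, a growth factor of the meninges and vessels, had 16.77, 121.3, 218.2 and 110.1 CPM, and 64.5% of its exon bases are shared with other annotated genes, which makes its count uncertain. Col1a1, a fibrillar collagen, had 11.92, 49.3, 103.1 and 36.82 CPM. Control 3 was highest and control 1 lowest in each of these 3 genes, and endothelial, mural and microglial sums were also highest in control 3. Their part in other differences between the progenitor controls was not tested.

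Blood was seen differently by the tables. The globin genes Hba-a1, Hba-a2, Hbb-bs and Hbb-bt are listed at 0 in the 4 progenitor controls, and Hba-a1 had 245, 311.1 and 273.7 CPM (rank 559) in the postmitotic controls. Alas2, the erythroid enzyme of haem synthesis, had 5.328 to 8.617 and 3.881 to 5.085 CPM, so a red-cell transcript was counted in both tables. The 4 globins have near-identical copies, and their zeros need not mean absent RNA.

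Receptor and channel subunits were read within families, as the share that each member took of its family's CPM per kilobase, a ratio that cancels library size. Of 115 receptor genes, 78 and 77 had at least 1 CPM in every control, and of 122 channel and transporter genes, 97 and 96. This held in both tables for 75 receptor and 96 channel genes. Gabra6, a GABA receptor subunit of cerebellar granule cells, the nicotinic subunits Chrna9 and Chrnd, and the potassium channel Kcna10 had 0 counts in all 7 controls. The limit for these zeros is the same as for Ly6g.

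NMDA receptors pair an obligatory GluN1 subunit, encoded by Grin1, with GluN2 subunits, of which Grin2b is known to prevail in young and Grin2a in mature cortex. Grin2b had 500.4, 667, 571.7 and 630.9 CPM (rank 177) and 512, 464.5 and 476.7 CPM (rank 216). It took 56.7% ± 2.43 (SD, n = 4) and 60.6% ± 2.87 (SD, n = 3) of the GluN2 counts per kilobase. Grin2a took 8.38% ± 0.745 (SD, n = 4) and 8.07% ± 0.193 (SD, n = 3), and Grin2b exceeded it by 6.82 ± 0.851 times (SD, n = 4) and 7.51 ± 0.255 times (SD, n = 3), with no overlap in any control. Grin2d, a subunit of young neurons and interneurons, took 34.2% and 31.0%, the second place in both tables. Grin2c took 0.728% and 0.359%. Grin3a, a subunit of the postnatal period, ranked 2189 and 2229. Grin1 stood at 0.893 ± 0.115 times (SD, n = 4) and 0.828 ± 0.0859 times (SD, n = 3) the level of Grin2b per kilobase, and with exon lengths of the basic transcript set, a smaller set of annotated transcripts, Grin1 came first.

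AMPA receptors carry fast excitation, and the Gria2 subunit keeps them closed to calcium. Gria2 had 522.2, 549.9, 490.9 and 517.4 CPM (rank 230) and 593, 480.4 and 496.8 CPM (rank 183). Per kilobase Gria1 and Gria2 were close in the progenitor controls, at 39.8% ± 1.3 and 38.6% ± 1.59 (SD, n = 4), and Gria2 led in the postmitotic controls, at 44.7% ± 2.11 against 34.2% ± 1.45 (SD, n = 3). With basic exon lengths Gria2 led in both, at 44.5% and 51.4%. Gria4 took 11.8% and 14%, and Gria3 9.91% and 7.18%. Of the proteins that accompany AMPA receptors, the cornichon Cnih2 had the highest level per kilobase in both tables, at 249.9 ± 28.4 (SD, n = 4) and 214 ± 31 (SD, n = 3) CPM per kilobase.

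Kainate and metabotropic receptors were led by Grik5 and Grm3 per kilobase. Grik5, a high-affinity kainate subunit, ranked 552 and 653 by CPM. Grm5, the postsynaptic group I receptor, had more counts than Grm3 (ranks 836 and 929 against 2510 and 3209), and the order turned per kilobase, at 23.46 against 32.87 in the progenitor and 20.04 against 24.41 in the postmitotic controls. The ranges of Grm3 and Grm5 overlapped in the progenitor controls, and with basic exon lengths Grm5 led in the postmitotic controls. Grm6, the receptor of retinal bipolar cells, had at most 0.0814 CPM and 0.

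GABA-A receptors combine alpha, beta and gamma or delta subunits, and Gabra3, Gabra5 and Gabra2 are alpha subunits known from young cortex. Gabra5 had 60.97, 62.19, 65.06 and 76.55 CPM and 84.17, 97.81 and 99.81 CPM. Per kilobase Gabra3 took 32.4% of the alpha subunits and Gabra5 27.5% in the progenitor controls, and their ranges over the libraries overlapped (29.3% to 34.9% against 25.6% to 29.7%). In the postmitotic controls Gabra5 led with 41.1%, followed by Gabra3 with 26.5%. Gabra2 took 13.2% and 14.7%.

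Among beta subunits Gabrb2 took 40% ± 0.438 (SD, n = 4) and 22.5% ± 1.08 (SD, n = 3) per kilobase. Gabrd of extrasynaptic receptors took 17.3% and 13.6% of the gamma and delta counts per kilobase. Both subunits of the GABA-B receptor were high: Gabbr1 ranked 189 and 208, and Gabbr2 ranked 481 and 799.

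Glycine receptors were represented by Glrb (ranks 2177 and 2817) and by Glra2, the alpha subunit of the immature brain, at 23.17 to 30.63 and 32.96 to 34 CPM. Glra1, the adult spinal subunit, had at most 0.1031 and 0.1386 CPM.

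Receptors of the modulatory transmitters were lower. Chrm1, the main muscarinic receptor of cortical pyramidal cells, had 137, 122.6, 118.5 and 126.7 CPM (rank 1966) and 86.27, 87.32 and 89.5 CPM (rank 2755), the first of the acetylcholine receptor genes on both scales. Per kilobase its range overlapped that of Chrm4 in the progenitor controls, with means of 19.46 and 18.53. The nicotinic subunits Chrnb2 and Chrna4 ranked 3206 and 4240 in the progenitor and 3029 and 5912 in the postmitotic table. Of 21 acetylcholine receptor genes, 9 had at least 1 CPM in every control of either table. Of 14 serotonin receptor genes, 6 and 7 did, with Htr5a first by CPM (ranks 7964 and 8588) and Htr7 first per kilobase. The ranges of Htr7 and Htr5a per kilobase overlapped in both tables. Adra2a, Adrb1 and Drd1 were the highest of the adrenergic and dopamine receptors, at 15.91 to 24.58, 14.98 to 19.21 and 9.774 to 15.4 CPM in the progenitor controls. In the postmitotic controls they had 10.84 to 11.23, 7.173 to 10.54 and 11.43 to 13.12 CPM.

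**Figure D3:**
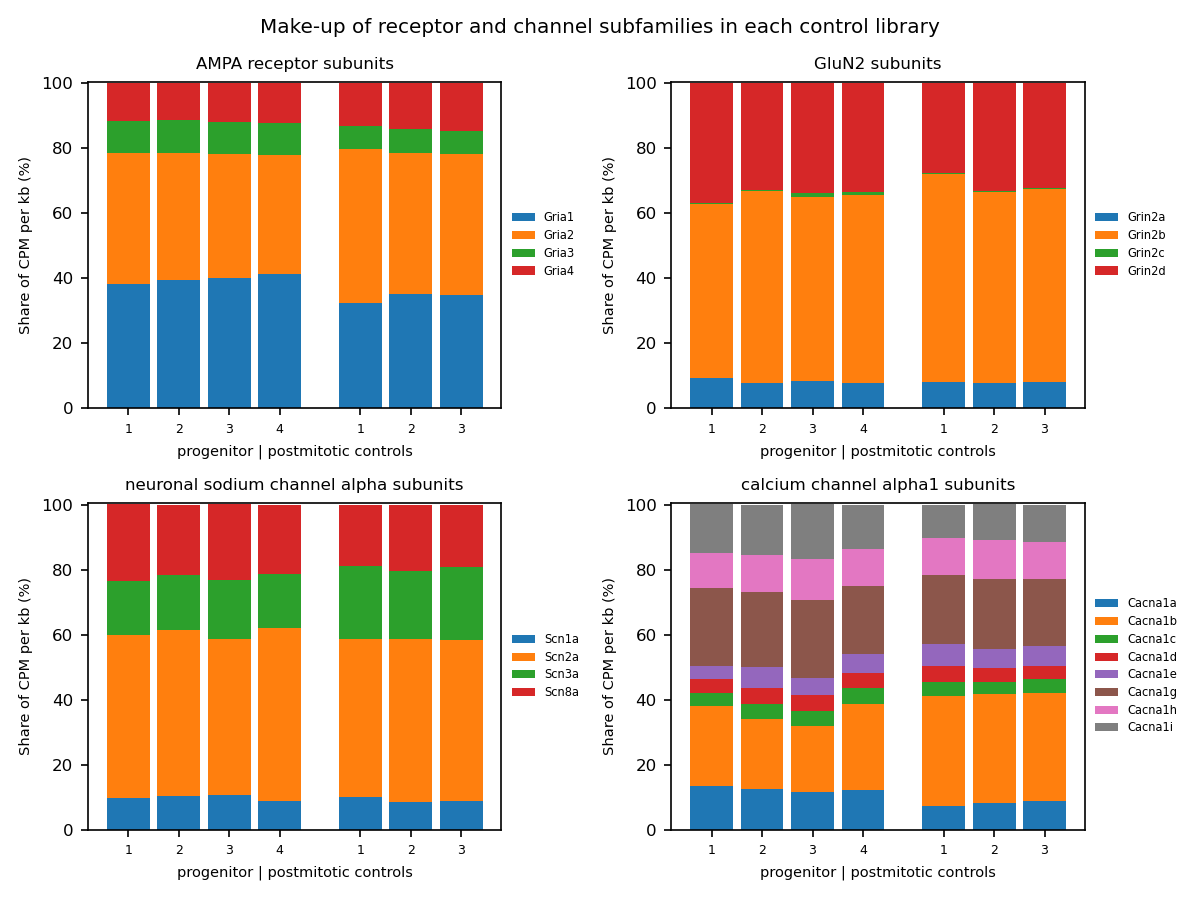
Share of CPM per kilobase of exon taken by each member of 4 receptor and channel subfamilies (percent, vertical axis), with 1 stacked bar per control library, progenitor controls 1 to 4 and then postmitotic controls 1 to 3, and 1 panel per subfamily. Grin2b and Scn2a lead their panels in both groups, and Gria1 and Gria2 lie close together in the progenitor controls.

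Voltage-gated sodium channels carry the action potential. Scn2a, the alpha subunit of young axons, had 420, 490.3, 376.4 and 474.2 CPM (rank 297) and 378.5, 352.6 and 356 CPM (rank 338), and it took 50.6% ± 2.1 (SD, n = 4) and 49.4% ± 0.83 (SD, n = 3) of the 4 neuronal alpha subunits per kilobase. Scn8a, known to follow at mature axon initial segments, took 22.5% and 19.4%, and Scn3a, an embryonic subunit, took 17% and 22%. Scn8a stood above Scn3a in the progenitor and below it in the postmitotic controls, where their levels overlapped at 10.73 to 11.56 and 11.54 to 13.79 CPM per kilobase. Scn1a, the subunit of inhibitory neurons, took 9.91% and 9.23%, the lowest share in both. The muscle subunit Scn4a and the sensory subunit Scn10a had at most 0.1144 CPM in any control.

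Among calcium channel pore subunits Cacna1b, the N-type channel of presynaptic release, led with 23.2% ± 2.9 (SD, n = 4) and 33.5% ± 0.325 (SD, n = 3) per kilobase. Cacna1g, a T-type channel, followed at 22.9% ± 1.42 (SD, n = 4) and 21% ± 0.486 (SD, n = 3), so the first place was not separated in the progenitor controls, where Cacna1g led with basic exon lengths (22.8% against 19.7%). Cacna1a, the P/Q-type channel known to dominate adult synapses, took 12.5% and 8.15%. The L-type subunits Cacna1c and Cacna1d took 4.52% and 4.66% in the progenitor and 4.18% and 4.42% in the postmitotic controls, equal within the spread of the libraries. Cacnb3 was the highest auxiliary subunit per kilobase, at 69.21 and 72.21.

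Of the Kv1 to Kv4 channel genes 23 of 26 had at least 1 CPM in every control of each table. Kcnip2, a calcium sensor that binds Kv4 channels, led per kilobase in the progenitor controls, at 30.65 CPM per kilobase. Of the pore subunits Kcnd2, the A-type channel of dendrites, stood at 22.34 and 19.3 CPM per kilobase, and in the postmitotic controls its range overlapped that of Kcnip2 (17.94 to 21.03 against 18.31 to 21.31). By CPM the auxiliary subunits Dpp6 and Dpp10 came first, at ranks 1290 and 1697 in the progenitor and 1558 and 1521 in the postmitotic table. Per kilobase Dpp6 stood at 14.27 and 11.58 CPM per kilobase. Kcna1, a subunit of mature axons, was low, at 9.971, 14.91, 8.378 and 14.44 CPM and 1.228, 1.892 and 1.617 CPM. Of the M-type subunits Kcnq3 took 27.9% and 25.8% of the counts per kilobase.

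The HCN channels, which carry a current activated by hyperpolarisation, were led per kilobase by Hcn2 with 47.6% ± 1.77 (SD, n = 4) and 39.3% ± 1.92 (SD, n = 3). Hcn3 took the second place in both tables, with 33.1% and 35.4%. In the postmitotic controls the levels of Hcn2 and Hcn3 per kilobase overlapped, with means of 21.72 and 19.5, and Hcn3 came first by CPM. Of the inward rectifiers the astrocytic Kcnj10 had the most counts in the progenitor controls, at 139, 148.8, 163.5 and 121.5 CPM (rank 1659), and 46.17, 57.79 and 53.42 CPM (rank 4377) in the postmitotic controls. Kcnj3 and Kcnj9, subunits of G-protein-gated channels, ranked 3195 and 2473 in the progenitor and 4004 and 5525 in the postmitotic table. The count of Kcnj3 is less certain, as 31.1% of its exon bases are shared with a gene on the other strand. Kcnk2 led the two-pore channels per kilobase, at 18.76 and 10.09, and Kcnk9 by CPM, at ranks 2611 and 2726.

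The chloride transporters decide whether GABA excites or inhibits a neuron: Slc12a5 (KCC2) exports chloride and is known to rise after birth, and Slc12a2 (NKCC1) imports it. Slc12a5 had 352.2, 376.9, 322.5 and 361.6 CPM (rank 420) and 177.7, 210.6 and 203.3 CPM (rank 986). Slc12a2, which is also expressed by glia, had 52.99, 60.24, 57.06 and 58.16 CPM (rank 4306) and 68.68, 55.43 and 59.15 CPM (rank 3850). Per kilobase Slc12a5 exceeded Slc12a2 by 9.08 ± 0.6 times (SD, n = 4) and 4.8 ± 0.912 times (SD, n = 3). The lowest ratio in any control was 3.79, in postmitotic control 1.

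The spread between replicates was summarised by the biological coefficient of variation (BCV), an estimate of relative spread beyond counting noise. Values of single genes were edgeR's tagwise estimates, which are drawn toward the trend of genes of like abundance. They are not the raw spread of a gene, and differences at the low end partly reflect that trend. The common value over all genes was 0.108 for progenitor and 0.0861 for postmitotic controls. Pairs of controls differed by a chi-square per degree of freedom of 6.73 to 20.7 and 6.89 to 10, so no pair agreed within counting noise. Among genes of at least 5 CPM the median was 0.0881 over 11489 genes and 0.0793 over 11117 genes. The lists of AMPA and GABA-A subunits lay near these medians, at 0.0768 and 0.0752 for AMPA and 0.0883 and 0.0754 for GABA-A. Those of NMDA subunits (0.103 and 0.0724) and of kainate and delta subunits (0.104 and 0.0735) lay above the median in the progenitor controls. The acetylcholine receptor list, which includes the nicotinic subunits, was wider at 0.159 and 0.115. Serotonin receptor genes, with fewer counts, had wider spreads of 0.172 and 0.127.

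The widest spread in the progenitor controls fell on Baiap2l1, an actin-binding adaptor, with a BCV of 0.794. It had 12.45 and 15.19 CPM in controls 1 and 4 and 0.877 and 1.057 CPM in controls 2 and 3. Dnah8, a dynein heavy chain, followed with 1.14, 15.63, 8.038 and 1.134 CPM, and Rsph1, a protein of motile cilia, with 15.44 CPM in control 2 and 1.424 to 2.372 CPM in the others. Next came Ptgds, Cdh15, Fmod, H19, Col3a1, Col1a2 and C4b. The fibroblast list had a median BCV of 0.561, and its low values in control 1 were given above. The lowest BCV was that of Akap1, a mitochondrial anchoring protein, at 0.06465 with 71.87, 72.25, 71.48 and 71.74 CPM. Man1b1, Zfp91, Chtf8 and Nploc4 followed.

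In the postmitotic controls Cwc22, a splicing factor, had the widest spread, with 301.8, 250 and 24.63 CPM and a BCV of 0.462. Mid1, a ubiquitin ligase on the X chromosome, had 42.68, 98.67 and 10.3 CPM. Rpl26 had 123, 23.42 and 24.12 CPM and 0 counts in the progenitor controls. Col1a1, Hspa1b, Xlr3b, Tmem267, Ccl28, Nr4a2 and Hexdc followed. Dpysl3, Tuba1c, Hsp90ab1 and Hspa8, at means of 3693, 1846, 1851 and 1414 CPM, were among the genes of lowest BCV. Cwc22 and Rpl26 have similar copies elsewhere in the genome, and 3 or 4 libraries order such genes imprecisely.

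**Figure D4:**
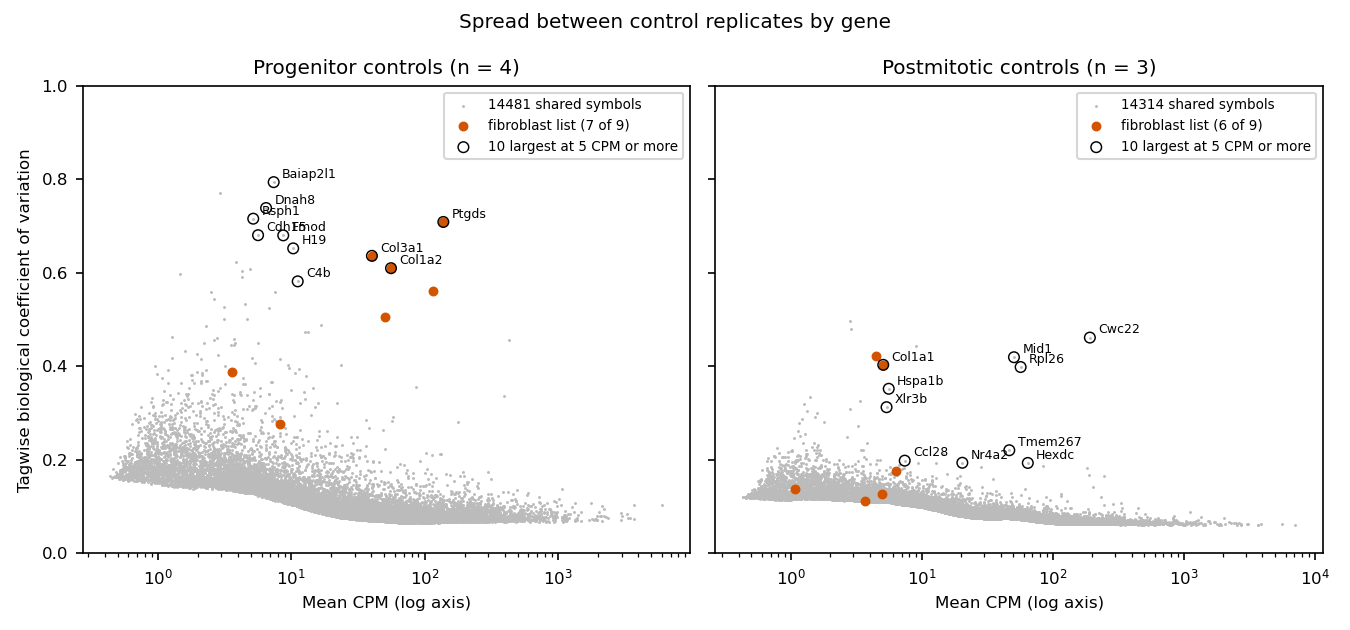
Biological coefficient of variation of each shared symbol kept by the low-count filter (vertical axis) against its mean CPM (horizontal, log axis), 1 panel per control group, with fibroblast genes in orange and the 10 widest genes of at least 5 CPM circled. In the progenitor panel most fibroblast genes lie above the cloud, with a list median of 0.561 against 0.0881 for all genes of at least 5 CPM.

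The 2 control groups gave like ranks for most genes. Of 11447 shared symbols with at least 5 CPM in every control of 1 table, 96.4% had ranks within 2-fold of each other, 409 differed more than 2-fold and 71 more than 5-fold. Of 301 such members of the lists, 263 (87.4%) lay within 2-fold. A highly counted gene passes 2-fold after a small shift (Nrgn, ranks 35 and 77), and a gene of low rank only after a large one. Both shares therefore depend on how highly the genes are counted, and they are not compared. The widest differences among the members, globins aside, were in Igf2 (7.09-fold), Ptgds (6.5-fold), Gfap (4.93-fold), Zbtb20 (4.48-fold) and Camk2a (4.38-fold).

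Hnrnpa1, an RNA-binding protein with many processed copies, ranked 9989 in the progenitor and 113 in the postmitotic table. Tuba1c ranked 1836 and 22. Hba-a1, Atp6v0c, Gm12070, 6820431F20Rik, Atp6v0c-ps2, Gm15772 and Oip5os1 also stood higher in the postmitotic table. In the other direction Gnas, the stimulatory G protein subunit, ranked 33 and 3608, and Pde2a, a cyclic nucleotide phosphodiesterase, ranked 402 and 12045. Rpl13a, Prrt2, Camk4, Rpl24, Nme2, Atn1 and Galnt2 followed. Of the 20 genes of widest rank difference 8 shared at least 25% of their exon bases with another gene, against 5.23% of all symbols compared, and all 8 ranked higher in the progenitor table. For 7 of the 8 the overlapping gene on the same strand is a predicted gene listed only in the postmitotic table, at 0 to 1.4 CPM. The part of annotation and of reads shared between copies in these rank differences was not tested further.

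The control levels were set beside those of the libraries labelled mutant, within each experiment. Over all genes tested with edgeR's quasi-likelihood test at a Benjamini-Hochberg adjusted p under 0.05, 23.4% were called in the progenitor experiment (3577 of 15295) and 1.96% in the postmitotic experiment (348 of 17775). By direction, 12% were called higher and 11.4% lower in the first, and 0.895% and 1.06% in the second. These counts fell to 2383 without progenitor mutant-labelled library 3, and to 160 and 197 without postmitotic control 2 or 3. The counts of list members are read against these shares, and the median log2 difference of all tested genes was 0.004 and -0.0022.

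In the progenitor experiment several receptor and channel lists had members called mostly lower in the libraries labelled mutant. Of 24 tested Kv1 to Kv4 genes 0 were called higher and 9 lower, with a list median log2 difference of -0.17. Of 13 GABA-A genes 1 was called higher and 6 lower (median -0.19), of 13 acetylcholine receptor genes 0 and 6 (median -0.49), and of 10 two-pore channel genes 0 and 5 (median -0.42). Of 7 NMDA genes only Grin1 was called, at -0.32. Calcium channel genes went the other way, with 4 of 18 called higher (Cacna1b, Cacna1h, Cacna1d and Cacna1g) and 2 lower (median 0.165), and their sum was 2385 to 2675 CPM in controls and 2828 to 2934 CPM in libraries labelled mutant. Chrm1 had 137, 122.6, 118.5 and 126.7 CPM in controls and 79.04, 88.29, 90.82 and 88.71 CPM in libraries labelled mutant, a log2 difference of -0.54 (SE 0.06, adjusted p = 0.00021, edgeR's quasi-likelihood test), and the groups did not overlap. Other members called lower were Cacng3, an AMPA receptor partner (-1.02), Kcnk12 (-1.01), Scn2b (-0.84) and Slc12a5 (-0.40). Called higher were Kcnj16 (1.33), Scn9a (1.37), Cacna1b (0.68) and Slc12a2 (0.28). The ratio of Slc12a5 to Slc12a2 was 5.3 to 6.28 in the libraries labelled mutant, below the lowest control at 8.29.

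Of 13 immature neuron and progenitor genes tested in the progenitor experiment 7 were called higher and 0 lower (median 0.28), among them Sox11 (0.62). Neurog2, a proneural transcription factor, had 0.2035, 0.3813, 0.3019 and 0.1719 CPM in the controls and 175.5, 119.3, 210 and 63.32 CPM in the libraries labelled mutant. The groups did not overlap, and the log2 difference was 9.05 (SE 0.65, adjusted p = 0.000327, edgeR's quasi-likelihood test). The sources used here do not give the sequence of the Cre-EGFP plasmid, and counts from the Neurog2 gene and from any Neurog2 sequence on that plasmid cannot be told apart. Of 16 upper-layer genes 6 were called higher, led by Inhba, the activin beta subunit (1.07), and 1 lower, Calb1. Of 12 astrocyte genes 1 was called higher and 5 lower (median -0.16), with Slc1a2 and Glul among the latter. The 12 astrocyte genes summed to 2969 to 3827 CPM in controls and 2457 to 3083 CPM in libraries labelled mutant, and none of them was at 0 in the controls. The part of astrocyte RNA and of the sex markers in the receptor and channel differences was not tested. Of 9 fibroblast genes 0 were called by edgeR's quasi-likelihood test, 0 by DESeq2 and 0 at an unadjusted p under 0.05, over a wide range of sums in both groups (54.17 to 842 and 98.66 to 931.3 CPM). Of 12 excitatory genes 2 were called higher and 5 lower, led by Camk2a at -0.81 (SE 0.08, adjusted p = 7.77e-05, edgeR's quasi-likelihood test).

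In the postmitotic experiment 0 of 24 Kv1 to Kv4 genes were called by edgeR's quasi-likelihood test, with 7 at an unadjusted p under 0.05 and 1 by DESeq2. It also called 0 of 4 AMPA genes (2 unadjusted, 0 by DESeq2), 0 of 7 NMDA genes (2 and 0) and 0 of 12 astrocyte genes (8 and 1). Of 13 GABA-A genes 3 were called lower, Gabra4, Gabra2 and Gabrb1, and each of these calls was lost in at least 4 of the alternative fits. Lmo4, a LIM-only cofactor, had 226.4, 221.9 and 221 CPM in controls and 93.76, 92.14 and 96.09 CPM in libraries labelled mutant, a log2 difference of -1.25 (SE 0.06, adjusted p = 1.88e-07, edgeR's quasi-likelihood test). Slc17a6 (-1.08), Emx1 (-0.80), Glra3 (-1.75) and Chrm1 (-0.49) were also called lower, and Tbr1 (0.49), Ldb2 (0.91) and Glra2 (0.58) higher. Chrm1 (-0.54 and -0.49) and Camk2a (-0.81 and -0.50) were called lower in both experiments. Of the named members called, 59 of 76 in the progenitor and 11 of 28 in the postmitotic experiment kept the call under every alternative fit.

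**Figure D5:**
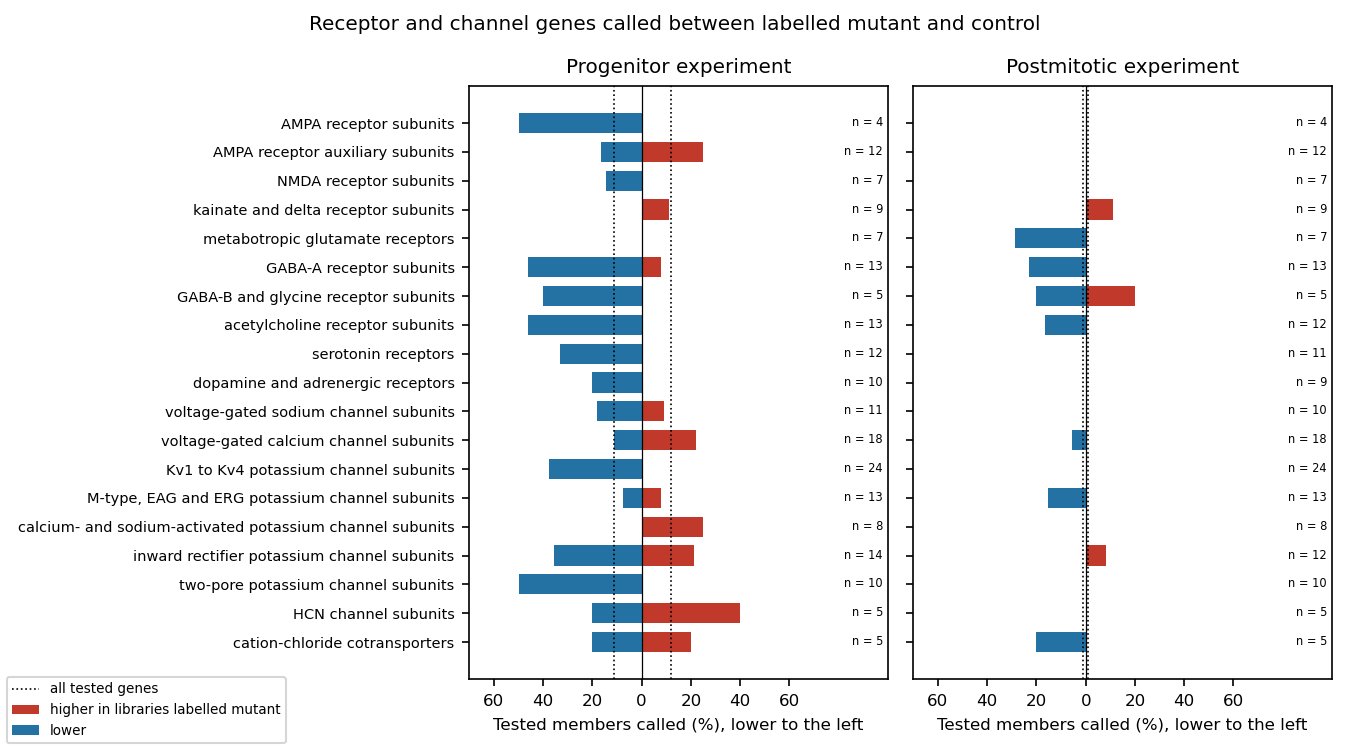
Percent of the tested members of each receptor and channel list called higher (red, to the right) and lower (blue, to the left) in the libraries labelled mutant, 1 panel per experiment, with the number tested at the right and dotted lines at the share of all tested genes. Of 24 tested Kv1 to Kv4 genes 9 are called lower in the progenitor panel and 0 in the postmitotic panel, where the dotted lines stand at 11.4% and 1.06%.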

How the data were processed

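Layer II/III RNA of mouse cortex was sequenced in 14 libraries, of which the 7 with a control label are described here and the other 7 serve the comparison of conditions. The authors deposited 2 tables of whole-number read counts per gene symbol, 1 per experiment. HISAT2, featureCounts, DESeq2 and the mm10 build are named in the submitters' processing notes, without versions. The sources used here do not give the gene annotation, the strand setting or the handling of reads shared between genes. The authors' tables of comparisons were not used here, and no other column of per-sample values was present (0). Results for some genes of the named sets are not reported here.

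Counts were scaled to CPM with TMM library sizes (edgeR 4.0.16, R 4.3.3) and ranked over 24690 symbols found in both tables, ties at their mean rank. Exon lengths came from the GENCODE M21 annotation of GRCm38, found for 98.5% of shared symbols, and the union of all exons of a gene was used. Libraries labelled mutant were tested against controls within each experiment with edgeR's quasi-likelihood test on all genes kept by its low-count filter, with Benjamini-Hochberg adjustment and a threshold of 0.05. The test was checked on simulated counts. BCV came from an intercept-only fit of the controls. A count of 0 was given an upper limit of 3 counts. Promoters were read from a RefSeq table of GRCm38.p6.

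The 38 gene lists, the members and the control libraries were chosen with earlier results of these data known. Older list symbols were matched to the current ones of the tables (Tafa1 and Ccn2). Named genes were the 20 symbols of lowest mean rank by CPM and per kilobase, the highest and undetected members of each list, any member of a receptor or channel family, set layer and chloride transporter genes, the 10 largest and 5 smallest BCV at 5 CPM or more, the 10 widest rank differences in each direction, and up to 3 members of each list with the smallest p in each experiment. A few further members (Ttr, Mki67, Top2a, Trp73, Zbtb20, Kcna1, Neurog2 and the sex-linked genes) were named after their values were seen. Replicate numbers were not used as pairs in the main fit, since the labels give no pairing. Same-numbered control and mutant-labelled libraries did not deviate together, but 3 or 4 libraries per group cannot show whether they shared a litter or batch. Alternatives were DESeq2 1.42.0, RLE size factors, no low-count filter, a replicate block, each library left out, other symbol sets and basic exon lengths.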

Additional observations from a re-analysis of the deposited data

Results flagged for a closer look

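In groups of 4 progenitor controls, a library was marked where its gap to the nearest other was a large part of the whole range (Dixon's test), and 2 of 70 groups of 4 were marked, where chance marks about 1 in 20. The summed CPM of the upper-layer genes was 2389 in progenitor control 4 and 2705 to 2746 in the other 3 controls. The same library had the highest deep-layer sum, at 951.5 CPM. The summed CPM of the choroid plexus and ependymal genes was 4.233 in progenitor control 1 and 7.892 to 8.604 in the others. Control 1 also had the lowest fibroblast sum, at 54.17 CPM.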

How the results depend on the processing

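The number of genes called in the progenitor experiment was 3577, and it ranged from 2383 to 3712 when each library was left out. In the postmitotic experiment 348 genes were called, 527 with DESeq2, 723 without the low-count filter, and 160 to 467 when each library was left out, with 160 without control 2 and 197 without control 3. With the replicate number as a block, 3073 and 246 genes were called. Correlations of same-numbered libraries, as deviations from their group means, were -0.442, 0.0708, -0.16 and 0.0698 in the progenitor experiment. They were -0.132, 0.0365 and -0.21 in the postmitotic experiment, and so few libraries cannot show whether the numbers pair samples. The share of the 100 most counted genes in the postmitotic controls was 16.5% over all symbols of the table. The rank correlation was 0.922 per kilobase and 0.961 over all shared symbols with a count. The common BCV ranged from 0.0913 to 0.12 and from 0.0705 to 0.0962 when a control was left out, and leaving out genes on X and Y, an alternative chosen after seeing the data like the basic exon lengths, gave 0.108 and 0.0846. No named log2 difference that was called in the main fit reversed its direction, and reversals among members not called were not counted. With a library left out, 149 of 876 values of the named genes were no longer past the threshold, where fewer samples were fitted. The 876 values include genes that were not called in the main fit and had no call to lose. Leading family shares moved in 34 of 38 cases with CPM in place of CPM per kilobase and in 28 of 38 with basic exon lengths. Depth limits what is said of genes under about 0.1386 CPM.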
